A study of Mus musculus with 8 samples.

Results

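The adipogenic transcription factors were 10 genes taken by name: *Pparg*, *Cebpa*, *Cebpb*, *Cebpd*, *Srebf1*, *Nr1h3*, *Ebf1*, *Ebf2*, *Klf4* and *Klf9*. They were looked up in a table of cluster marker genes made from single-cell RNA-seq of mouse preadipocytes, and every cluster was kept. All 10 had at least 1 entry, out of 3903 gene symbols in the table, and together they accounted for 40 of its 13337 entries, an entry being 1 gene listed for 1 cluster. The cells came from 4 groups with 2 samples each. Wild-type (WT) mice of the strain C57BL/6 gave preadipocytes taken at day 0 and cells taken at day 6 of induced browning, and mice lacking both Hmgn1 and Hmgn2 (Hmgn1-/- and Hmgn2-/-, called DKO) gave cells of the same 2 time points. HMGN1 and HMGN2 are nucleosome-binding proteins. The preadipocytes were isolated from the inguinal white fat of mice 8 to 12 weeks old and grown on collagen-coated plates. The cells of day 6 had received insulin, dexamethasone, the phosphodiesterase inhibitor IBMX, triiodothyronine (T3) and rosiglitazone, which is a ligand of PPARγ, the protein of *Pparg*. In the study's protocol this mixture was given for 4 days and was followed by medium with insulin and T3 only.

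Each entry gave how large a fraction of a cluster's own cells had at least some reads of the gene, and the same fraction for every cell not in that cluster. These are printed here as percentages and called detection inside and detection outside. The 12 clusters, numbered 0 to 11, pooled the cells of all 8 samples, so WT could not be set against DKO, nor day 0 against day 6, and the loss of the Hmgn genes could not be checked by sample. With no replicate, the values below carry no error and no test. The number of cells and of reads behind each fraction is unknown. Since the clusters were drawn on the expression of the same cells, a gene that differs between them is a description of the clusters. A cluster with no entry for a gene is not one in which the gene was absent, because the table lists only genes that passed the authors' thresholds for that cluster. To be listed, a gene had to be detected in at least 10% of the cells inside or outside the cluster. A gene below 10% outside could therefore be listed only with more detection inside. The detection inside and outside were also combined into the size of each cluster, solved from the 10 genes that had an entry in every cluster, which ranged from 1.5% of the cells in cluster 11 to 14.3% in cluster 0. Detection depends on how many reads a cell has. In clusters 4 and 10 the median entry was detected in 10.8% and 8.1% of the cells inside, against 63.0% and 62.4% outside, so there a member's value was read beside that median. Of marker lists for the sampled tissue, all 5 adipocyte genes and 5 of 6 preadipocyte genes were listed, and none of 5 immune, 4 endothelial and 4 glial genes was, the study having removed those cells.

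Fat cell formation runs through a cascade of transcription factors. C/EBPβ and C/EBPδ, the proteins of *Cebpb* and *Cebpd*, are induced early by cyclic AMP and glucocorticoid signals, and they switch on PPARγ and C/EBPα, which then keep each other on and activate the genes of fat storage. KLF4 acts upstream of C/EBPβ, EBF1 and EBF2 are early B-cell factors that prepare fat cell enhancers, EBF2 above all in brown and beige fat, and SREBP1c and LXRα, from *Srebf1* and *Nr1h3*, govern fatty acid synthesis and cholesterol export.

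The members fell into patterns by cluster. Among the clusters with an entry, cluster 11 had the largest excess of detection inside over outside for 6 members, namely *Pparg*, *Cebpa*, *Srebf1*, *Nr1h3*, *Ebf1* and *Ebf2*. Cluster 1 was that cluster for 3 others, *Cebpb*, *Cebpd* and *Klf4*, and cluster 8 for *Klf9*. Of the 40 entries, 19 had detection at least 10 percentage points higher inside than outside, which is 47.5%, beside 40.0% of all entries of the table. Another 11, or 27.5%, were at least 10 points lower inside, beside 37.4% of all entries. Among the 30 entries outside clusters 4 and 10, 19 were higher (63.3%, beside 50.4% of all such entries) and 3 of 30 were lower, beside 22.4%. No member was listed for cluster 3.

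**Figure D1:**
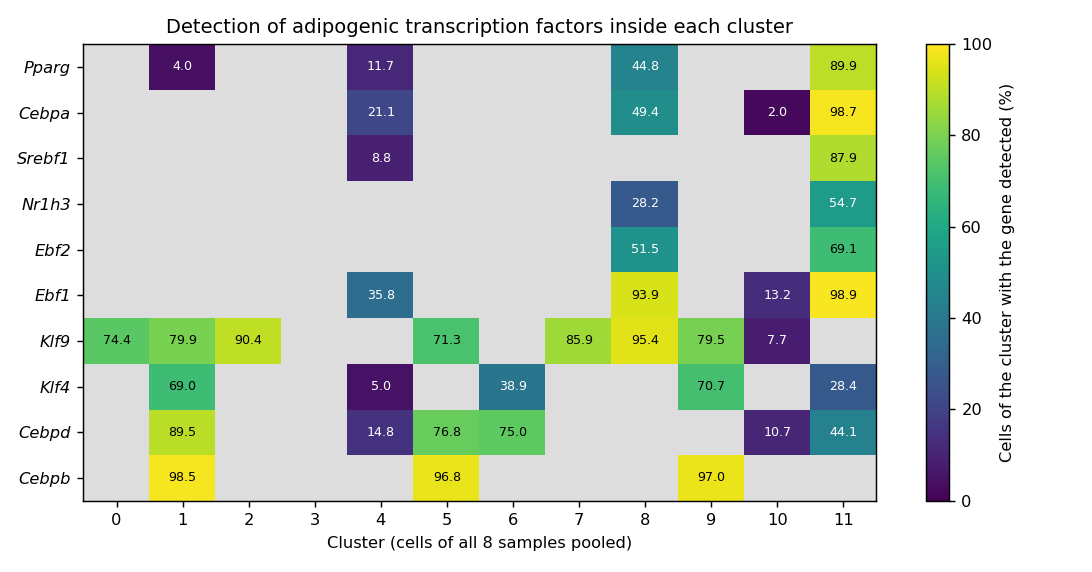
Detection of the 10 factors inside each of the 12 clusters, as the percentage of the cluster's cells with the gene detected (colour and printed value), with cells of all 8 samples pooled. Grey squares have no entry in the table. The column of cluster 11 holds high values for *Pparg* (89.9%), *Cebpa* (98.7%) and *Srebf1* (87.9%) and lower ones for *Klf4* (28.4%) and *Cebpd* (44.1%).

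The sequences just upstream of the annotated starts are shown for 1 member of each pattern, and for both *Pparg* and *Cebpa*, whose proteins act on each other's genes. They are from RefSeq on GRCm38.p6 (mm10), each 250 bases long, 5′ to 3′ on the plus strand, which is the strand of all 4 genes, and they end at the base before the start. Promoter sequences were at hand for 8 of the 10 members, without *Cebpd* and *Ebf2*, and these held 14 starts. Capitals mark matches, on either strand, to a C/EBP site (TTGCNNAA), an AP-1 site (TGANTCA), a cyclic AMP response element (TGACGTCA), a TATA box (TATAAA) or a GC box (GGGCGG).
*Pparg*, the most downstream of 3 starts, chr6:115421816-115422065: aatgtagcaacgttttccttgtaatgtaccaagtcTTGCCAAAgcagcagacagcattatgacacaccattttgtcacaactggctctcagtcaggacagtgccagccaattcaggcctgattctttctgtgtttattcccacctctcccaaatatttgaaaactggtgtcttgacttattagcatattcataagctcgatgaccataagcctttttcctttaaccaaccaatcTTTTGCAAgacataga
*Cebpa*, chr7:35119043-35119292: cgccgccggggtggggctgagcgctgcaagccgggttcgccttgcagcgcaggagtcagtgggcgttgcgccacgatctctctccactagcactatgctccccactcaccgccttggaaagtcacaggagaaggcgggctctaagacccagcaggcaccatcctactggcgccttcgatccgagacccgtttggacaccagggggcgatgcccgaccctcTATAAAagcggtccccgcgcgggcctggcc
*Cebpb*, chr2:167688665-167688914: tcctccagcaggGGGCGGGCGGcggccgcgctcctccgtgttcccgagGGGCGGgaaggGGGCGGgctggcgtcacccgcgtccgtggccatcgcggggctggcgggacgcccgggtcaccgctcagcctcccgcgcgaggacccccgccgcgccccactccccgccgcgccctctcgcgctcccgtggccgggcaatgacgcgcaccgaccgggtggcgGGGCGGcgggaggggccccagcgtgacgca
*Klf9*, chr19:23140976-23141225: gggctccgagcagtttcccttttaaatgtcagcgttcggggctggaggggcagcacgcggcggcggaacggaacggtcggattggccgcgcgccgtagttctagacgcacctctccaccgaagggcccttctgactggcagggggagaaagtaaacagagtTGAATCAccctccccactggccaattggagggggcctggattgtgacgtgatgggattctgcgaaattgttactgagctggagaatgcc

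The window at the downstream *Pparg* start held 2 matches to the C/EBP site, beginning 215 and 16 bases before the start, while 9.56% of 32851 mouse promoter windows held at least 1. Neither of the other *Pparg* starts nor any start of the other 7 members had a match to these exact letters (TTGCNNAA). The *Cebpa* window had a TATA box 30 bases before its start, which 12.4% of promoters had, and the *Cebpb* window had 5 GC boxes, of which a pair overlapped and which 32.7% of promoters had at least once. *Klf9* had the only match to the AP-1 letters TGANTCA of the 14 starts, 89 bases before its start, beside 6.75% of promoters. This pattern allows any middle base, and the stretch in *Klf9* read TGAATCA. The cyclic AMP response element was in 1.55% of promoters and in no window of a member. Only the exact letters given for each motif were searched, so shorter or variant forms of a site were not counted. A window without a match is thus not evidence that the site was missing. Letters of a motif in these windows are a description and not evidence that a factor was bound there, and single-cell reads from the 3′ end of a transcript do not tell which *Pparg* start was used.

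*Pparg* (chr6:115360951-115490399 in GENCODE M21 on GRCm38, plus strand, protein-coding), the master regulator of fat cell formation, had entries in 4 clusters. Its detection was 89.9% inside cluster 11 and 14.7% outside. In cluster 8 detection was 44.8% inside and 14.1% outside. In cluster 4 it was 11.7% inside and 16.3% outside, and in cluster 1 it was 4.0% inside and 17.8% outside. Among these 4 clusters, 11 and 8 were thus the high ones and 1 the lowest, a spread from 4.0% to 89.9%, beside 15.9% of all cells. The single values of the other 8 clusters are unknown. The 75.2-point excess in cluster 11 ranked 17 of the 2487 entries of that cluster, with 0.643% of them larger. The remaining 8 clusters, without an entry, had a mean detection of 14.8%, and because they made up 68.8% of the cells they held 64.1% of the cells in which *Pparg* was detected, whereas cluster 11, small as it was, held 8.52% and cluster 8 held 16.7%.

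*Cebpa* (chr7:35119293-35121928, plus strand, protein-coding), the partner of *Pparg* in the mature fat cell, was likewise high in clusters 11 and 8. Detection was 98.7% inside cluster 11 and 26.1% outside, and 49.4% inside cluster 8 and 25.8% outside. It was 21.1% inside cluster 4 and 27.9% outside, and 2.0% inside cluster 10 and 28.1% outside. The order of the clusters with an entry for both genes, 11 over 8 over 4, was the same as for *Pparg*. The difference of 72.6 points in cluster 11 ranked 27 of 2487. Over all cells *Cebpa* was detected in 27.2%, and cluster 11 held 5.45% and cluster 8 held 10.8% of the cells with it.

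Cluster 4 needs its background beside it, as 92.8% of its 2072 entries were at least 10 points lower inside than outside, and so were 4 of the 6 members listed there. *Pparg* and *Cebpa* were the exceptions, with differences of -4.6 and -6.8 points, where the median entry of the cluster was at -47.2 points. In points these are not fully comparable, since a fall cannot exceed the outside value. That value was 16.3% for *Pparg* and 27.9% for *Cebpa*, beside a median of 63.0%. On the scale of the log2 odds ratio of detection (odds inside over odds outside), *Pparg* stood 3.84 and *Cebpa* 3.87 above the cluster's median entry, with 2.94% and 2.85% of its entries higher, respectively. *Srebf1* stood 2.48 above that median, with detection of 8.8% inside and 26.8% outside. The other members listed lay nearer to the median, with *Ebf1* at 0.81, *Cebpd* at 0.43 and *Klf4* at 0.20 above it. Detection was thus low for nearly all entries of cluster 4, and less so for *Pparg* and *Cebpa* than for most.

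**Figure D2:**
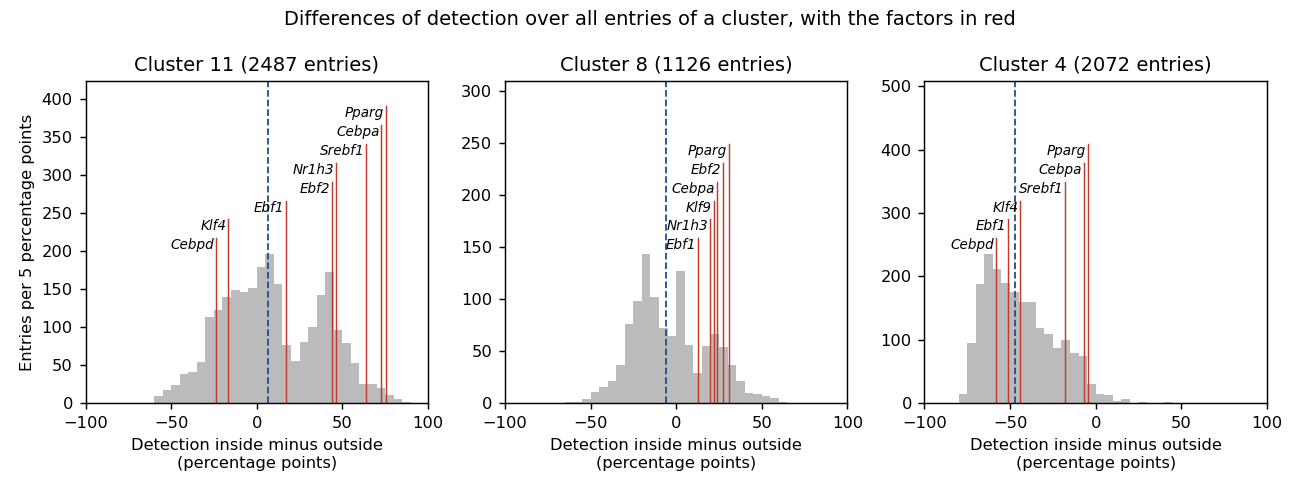
Detection inside minus outside, in percentage points, for all entries of clusters 11, 8 and 4 (grey bars, number of entries in steps of 5 points), with the median entry as a dashed line and the members as red lines, whose heights only separate the labels. *Pparg* and *Cebpa* lie in the upper tail in clusters 11 and 4, although both are below 0 in cluster 4.

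*Srebf1* (chr11:60199089-60222581, minus strand, protein-coding) encodes SREBP1, which drives genes of fatty acid synthesis. In cluster 11 its detection reached 87.9% inside, with 24.1% outside, a difference of 63.8 points that ranked 72 of 2487. Apart from this cluster it was listed only for cluster 4. Over the 10 clusters with no entry, its mean detection was 25.8%, and these held 91.4% of the cells with *Srebf1*.

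*Nr1h3* (chr2:91184061-91202834, minus strand, protein-coding), the gene of the oxysterol receptor LXRα, was the least often detected member, in 9.39% of all cells. Detection was 54.7% inside cluster 11 and 8.7% outside, a ratio of 6.29. It was 28.2% inside cluster 8 and 8.2% outside. Both clusters were above the mean of 7.46% over the clusters without an entry, whose single values are unknown. They held 8.74% and 17.8%, respectively, of the cells with *Nr1h3*.

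*Ebf2* (chr14:67233292-67430918, plus strand, protein-coding), a factor of brown and beige fat precursors, was listed for the same clusters as *Nr1h3*. It was detected in 69.1% of cluster 11 against 25.2% outside, and in 51.5% of cluster 8 against 24.2% outside. Measured against the median entry of the same cluster, its log2 odds ratio was 1.96 above in cluster 11 and 2.23 above in cluster 8. *Ebf1* (chr11:44617317-45008091, plus strand, protein-coding), a relative that also promotes fat cell formation, was detected in 82.1% of all cells, so that little room was left above it. Detection of *Ebf1* was 98.9% inside cluster 11 and 81.8% outside, and 93.9% inside cluster 8 and 81.3% outside. It was low in the clusters with few genes detected, at 35.8% in cluster 4 (87.0% outside) and 13.2% in cluster 10 (84.3% outside). Clusters 8 and 11 thus each exceeded all cells outside them, by 27.3 and 43.9 points for *Ebf2* and by 12.6 and 17.1 points for *Ebf1*. The outside values of *Ebf1* include the low clusters 4 and 10. Over the clusters without an entry, mean detection was 23.5% for *Ebf2* and 89.3% for *Ebf1*.

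**Figure D3:**
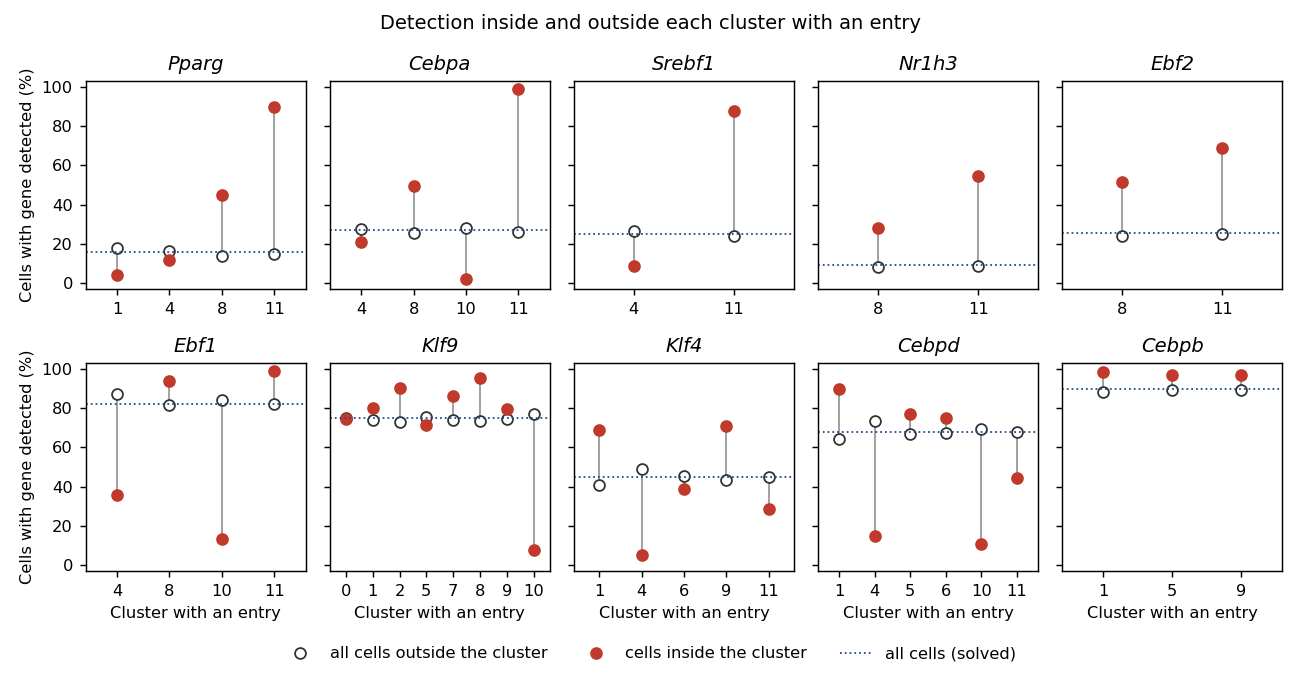
Detection inside (filled) and outside (open) every cluster with an entry, in percent of cells, for each of the 10 factors; the dotted line is detection over all cells. *Pparg*, *Cebpa*, *Srebf1*, *Nr1h3* and *Ebf2* have their highest point in cluster 11, whereas *Cebpd* and *Klf4* lie below the dotted line there.

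*Cebpb* (chr2:167688915-167690418, plus strand, protein-coding), an early factor of the cascade, was detected in 89.8% of all cells. Detection was 98.5% inside cluster 1 and 88.3% outside. It was 96.8% inside cluster 5 and 89.1% outside, and 97.0% inside cluster 9 and 89.3% outside. All 3 clusters with an entry were high, but with detection near its ceiling only that of cluster 1, at 10.2 points, passed 10 points. Measured against the median entry of the same cluster, the log2 odds ratio was 1.64 above it in cluster 1, and -0.54 and -0.38 from it in clusters 5 and 9. *Cebpb* had no entry for cluster 11.

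*Cebpd* (chr16:15887286-15891031, plus strand, protein-coding), the other early C/EBP factor, had 6 entries. Detection was 89.5% inside cluster 1 and 64.0% outside, 76.8% inside cluster 5 and 66.7% outside, and 75.0% inside cluster 6 and 67.0% outside. Measured against the median entry of the same cluster, the log2 odds ratio was 0.78 above in cluster 1. It was at -1.71 and -1.41 from that median in clusters 5 and 6. In cluster 11 detection was 44.1% inside and 68.0% outside. Among listed clusters, the one in which *Pparg* and *Cebpa* were most often detected therefore had less *Cebpd* than the other cells. Cluster 1, which was low in *Pparg*, had the most *Cebpd* of the 6 clusters with an entry. The 6 clusters without an entry had a mean detection of 72.8%, and their single values are unknown. In clusters 4 and 10, *Cebpd* was detected in 14.8% and 10.7% of the cells, near the median of all entries there when compared by log2 odds ratio (0.43 and 0.26 above it).

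*Klf4* (chr4:55527143-55532466, minus strand, protein-coding) also was high in cluster 1 and low in cluster 11. Detection was 69.0% inside cluster 1 and 40.9% outside, and 70.7% inside cluster 9 and 43.2% outside. It was 28.4% inside cluster 11 and 45.1% outside, 38.9% inside cluster 6 and 45.3% outside, and 5.0% inside cluster 4 and 49.1% outside. Clusters 1 and 9 were thus nearly level, with differences of 28.1 and 27.5 points. In cluster 9, however, 76.9% of all entries were at least 10 points higher inside, 4 of 4 proliferation genes among them, and the median of its entries was 84.5% inside and 57.8% outside, so that on the log2 odds ratio scale *Klf4* lay at -0.66 from that cluster's median, against 0.21 in cluster 1.

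*Klf9* (chr19:23141226-23168134, plus strand, protein-coding), a Krüppel-like factor inducible by glucocorticoid and thyroid hormone, was the most widely listed member, with 8 entries. Detection was 95.4% inside cluster 8 and 73.6% outside, 90.4% inside cluster 2 and 72.8% outside, and 85.9% inside cluster 7 and 74.1% outside. In clusters 0, 1, 5 and 9 it lay between 71.3% and 79.9%, close to the 74.9% of all cells. It was 7.7% inside cluster 10 and 77.1% outside, and 98.5% of all entries of that cluster were at least 10 points lower inside, as were all 4 members listed there. *Klf9* thus marked clusters 8 and 2, where it was 3.40 and 1.86 above the median entry in log2 odds ratio.

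Cluster 8 had entries for 6 members, and all 6 (100%) were at least 10 points higher inside, beside 26.2% of its 1126 entries. Their differences ran from 12.6 points for *Ebf1* to 30.7 for *Pparg*, with a median of 22.7, where the median entry was at -6.2 points. In cluster 11, 6 of 8 listed members (75.0%) were higher, beside 44.4% of all entries, and 2 of 8 (25.0%) were lower, beside 28.7%. The median difference of the 8 was 45.0 points, beside 6.6 for all entries of the cluster. *Nr1h3* was detected in 8.2% of the cells outside cluster 8 and 8.7% outside cluster 11, below the 10% needed for listing. Its entries in both clusters could therefore not have been lower inside. In cluster 1, 3 of 5 were higher, beside 58.8%, a share close to the background, and *Pparg* was the 1 that was lower, beside 21.0%.

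**Figure D4:**
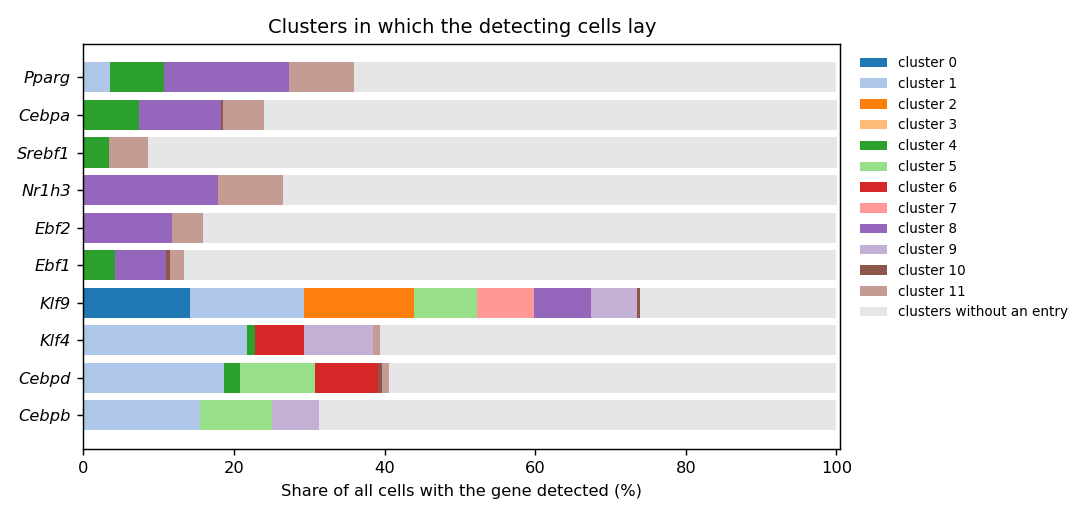
For each factor, the share of all cells with the gene detected that lay in each cluster with an entry (coloured) or in the clusters without an entry (light grey), in percent. Cluster 11 holds 8.52% of the cells with *Pparg* and 5.45% of those with *Cebpa*, although it has nearly all of its own cells positive.

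The targets of these factors were set beside them. Of 16 genes known as targets of PPARγ and C/EBPα, 12 were listed, all of them for cluster 11. There 11 were higher by at least 10 points, beside 44.4% of all entries, and none was lower, beside 28.7%. Their median difference was 69.0 points. *Dgat2*, *Plin4* and *Cidec*, at 8.9%, 8.8% and 5.7% outside, could be listed there only with more detection inside. *Plin1*, which coats lipid droplets, was detected in 99.8% of cluster 11 and 14.4% of other cells, and *Adipoq*, the gene of adiponectin, in 92.1% and 17.6%. *Cd36*, a fatty acid transporter, was detected in 99.8% and 28.4%, and *Dgat2*, which makes triglyceride, in 80.8% and 8.9%. The targets thus had high values in cluster 11, as *Pparg* and *Cebpa* did. In cluster 8, 5 of 6 listed targets were higher, beside 26.2% of all its entries, with a median of 31.4 points. *Plin4*, at 8.3% outside cluster 8, could not have been lower there. In cluster 4 all 12 were listed and 6 were higher, beside 0.82% of all its entries, and none was lower, with a median of 12.4 points against -47.2 for all its entries. There *Cd36* was detected in 69.0% of the cells (25.3% outside) and *Adipoq* in 40.5% (16.4% outside), while *Pparg* was detected in 11.7%. *Plin4* and *Cidec*, at 9.7% and 5.7% outside cluster 4, could not have been lower there. In cluster 1, low in *Pparg*, 8 of 9 listed targets were lower, beside 21.0% of all its entries, among them *Cd36* at 1.0% inside and 34.2% outside.

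Clusters 2 and 6 showed the targets without an entry for *Pparg* or *Cebpa*. In cluster 2, 7 of 7 listed targets were higher, beside 24.6% of all its entries, with a median of 24.8 points. In cluster 6, 5 of 5 were higher, beside 51.9% of all its entries, with a median of 32.2 points. *Cd36* was detected in 68.4% of cluster 2 and 78.2% of cluster 6, and *Plin1* in 27.8% and 45.5%. The detection of *Pparg* in these clusters is not given by the table, beyond the mean of 14.8% over all clusters without an entry.

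**Figure D5:**
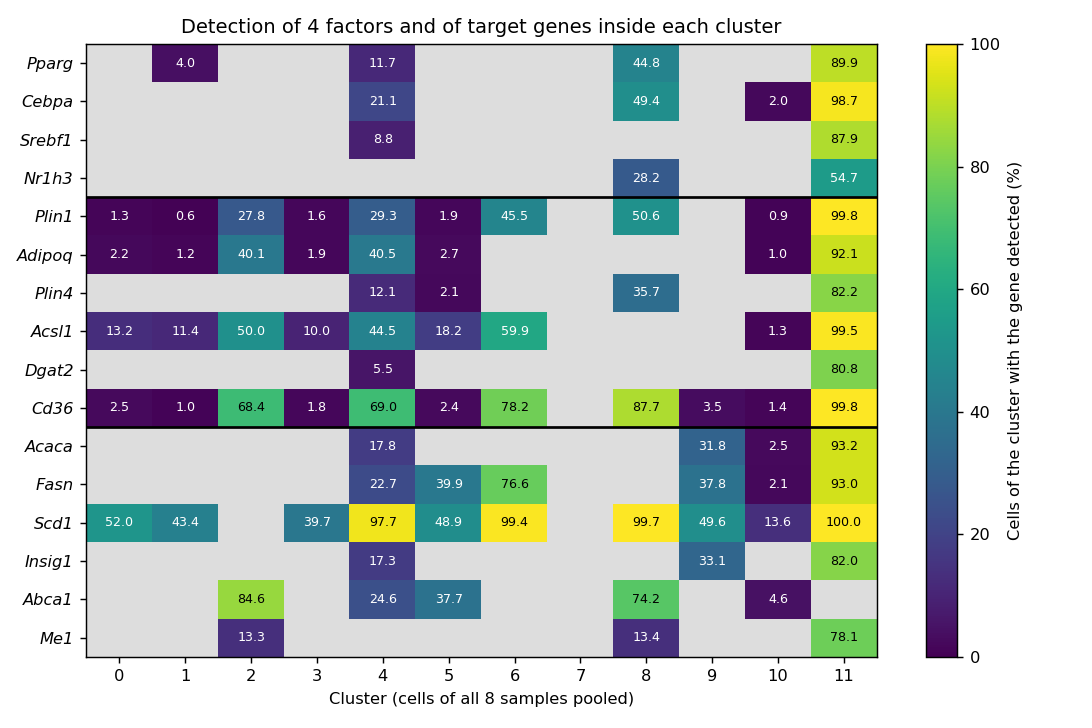
Detection inside each cluster, in percent of its cells, for 4 factors (top), 6 targets of PPARγ and C/EBPα (middle) and 6 targets of SREBP1c and LXR (bottom), with grey where there is no entry. Clusters 0, 1, 3, 5, 9 and 10 have *Cd36* at 3.5% or less, clusters 2, 4, 6 and 8 between 68.4% and 87.7%, and cluster 11 at 99.8%.

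Among 11 targets of SREBP1c and LXR, 8 were listed. In cluster 11, 7 were listed and all 7 were higher, beside 44.4% of all entries, along with *Srebf1* and *Nr1h3* themselves. The median of the 7 was 45.1 points. *Abcg1* among them, at 6.7% outside, could not have been lower. *Acaca*, which makes malonyl-CoA for fatty acid synthesis, was detected in 93.2% of cluster 11 and 31.4% of other cells, and *Fasn*, the fatty acid synthase, in 93.0% and 38.2%. *Insig1*, which holds SREBP back in the endoplasmic reticulum, was detected in 82.0% and 32.8%. In cluster 4, 4 of the 5 listed targets were lower, as were 92.8% of all its entries. Against the median entry of that cluster they were high in log2 odds ratio, by 3.18 for *Fasn* (22.7% inside and 40.7% outside) and by 2.60 for *Abca1*, beside 2.48 for *Srebf1*. *Scd1*, a desaturase, was higher there, at 97.7% inside and 61.7% outside. The cholesterol exporter *Abca1* was not listed for cluster 11 and was detected in 84.6% of cluster 2 and 45.6% of other cells.

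Other factors that promote fat cell formation were listed less completely, 7 of 17 having an entry. In cluster 11, 4 of the 5 listed were higher, beside 44.4% of all entries. *Ppargc1a* among them, at 1.8% outside, could not have been lower. *Ppargc1a*, the coactivator of mitochondrial and thermogenic genes, was detected in 47.5% of the cells there and in 1.8% outside, and *Nfib*, a nuclear factor I gene, in 96.0% and 63.2%. In cluster 8, 3 of 3 were higher, beside 26.2% of all its entries. *Zbtb16* was at 60.2% inside, 48.2 points above the outside value, and *Nfia* at 93.3% and 59.6%. *Zbtb16* was also detected in 54.9% of cluster 6 and 59.7% of cluster 11 but in 0.3% of cluster 1. The partners with no entry were *Rxra*, *Klf5*, *Klf15*, *Stat5a*, *Stat5b*, *Creb1*, *Zfp423*, *Prdm16*, *Ppara* and *Mlxipl*.

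Of 14 factors that restrain fat cell formation, 10 were listed, and they showed no common direction in cluster 11. There 2 of 6 were higher, beside 44.4% of all entries, and 2 were lower, beside 28.7%, with a median of -1.6 points. *Hes1*, a Notch target, was on the same side as *Cebpd* and *Klf4* in clusters 1, 4 and 11, with 89.0% inside cluster 1 (61.6% outside) and 22.8% inside cluster 11 (66.2% outside). *Foxo1* was on the other side, at 66.4% inside cluster 11 and 12.6% outside, as was *Id1* at 93.5% and 61.1%. *Klf2*, which represses *Pparg*, was detected in 51.3% of cluster 5 (21.6% outside) and 47.9% of cluster 0 (20.3% outside). Its log2 odds ratio lay at -0.5 and 0.16 from the median entries of these clusters. It was detected in 3.5% of cluster 8 (25.6% outside), 3.8% of cluster 2 (27.1% outside) and 5.0% of cluster 6 (25.8% outside). In cluster 4, low for nearly all entries, it was at 0.7% (26.8% outside).

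For the cells of day 6, dexamethasone was in the mixture of the first 4 days but not in the later medium. All 9 genes known to be induced by glucocorticoid were listed. They were set beside *Klf9* and *Cebpd*, which glucocorticoid also induces. *Fkbp5*, a common reporter of this response, was detected in 82.0% of cluster 6 (29.0% outside), 78.4% of cluster 8 (30.1% outside) and 61.7% of cluster 2 (29.0% outside), and in 12.6% of cluster 1 (36.3% outside). Of the list, 4 of 6 genes with an entry were higher in cluster 6, 3 of 5 in cluster 8 and 3 of 5 in cluster 2. Of all entries of these clusters, 51.9%, 26.2% and 24.6% were higher. No gene of the list was lower there, beside 211 of 1416, 513 of 1126 and 391 of 1133 entries. *Mt1* and *Mt2*, at 90.5% or more outside these clusters, had no room to be higher by 10 points. *Klf9* was higher in clusters 8, 2 and 7 and had no entry for cluster 6. In cluster 7, 1 of 4 genes of the list was higher and 2 were lower, beside 323 and 75 of its 540 entries. *Fkbp5* was detected in 10.1% of cluster 7 and 34.6% of the cells outside it. In cluster 1, where *Cebpd* was high, the list had no common direction. There 1 of 5 was higher and 1 lower, beside 58.8% and 21.0% of all entries. The higher one, named after its value was seen, was *Dusp1*, at 70.4% inside and 49.1% outside. In cluster 11, 5 genes of the list had an entry, of which 1 was higher and 2 were lower, beside 44.4% and 28.7% of all entries.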

How the data were processed

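Cells of 8 samples were captured with 10x 3′ chemistry. The authors aligned reads to mm10 with Cell Ranger 6.0.0, and in Seurat removed cells with fewer than 500 genes or over 10% mitochondrial reads, and immune, glial and endothelial cells. They clustered at resolution 0.6. Removal of doublets is not given in the sources used here. The deposited table holds, for each marker gene and cluster, detection as a fraction of the cells in the cluster and of those outside it. Its fold changes and p-values, the authors' own comparison (MAST), were not used.

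Fractions were printed as percentages. Cluster shares and detection over all cells were solved by least squares (Python 3.11.15, numpy 2.4.6, pandas 2.3.3, matplotlib 3.10.9), checked on simulated data. For odds, fractions of 0 or 1 were moved inward by 0.05%. Higher or lower means at least 10 percentage points. The members and gene lists were chosen with earlier results of these data known. All members were named, and of each list up to 6 genes with the largest difference in any cluster. The table did not separate samples, so there is no test. Of the other symbols, 7 appear as dates.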

Additional observations from a re-analysis of the deposited data

How the results depend on the processing

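No paired analysis was possible because no result comes from a test, the cells of all samples being pooled, and for the same reason no replicate could be left out. The 19 member entries higher inside numbered 23 at a minimum of 5 points and 13 at 20 points. The 11 lower entries numbered 3 without clusters 4 and 10, whose entries were nearly all lower, the setting itself having removed 8 of them. They numbered 13 at 5 points and 8 at 20 points. An alternative chosen after seeing the data, the odds against the cluster's median entry, gave 19 higher and 13 lower. The leading cluster by detection inside was kept by 9 of 10 members, *Klf4* moving to cluster 9, and by 10 of 10 with ratios or log odds. These log odds were not set against the cluster's median entry, by which *Ebf2* was higher in cluster 8 than in cluster 11. At 20 points, lower entries numbered 4 in place of 12 for promoting partners, 19 in place of 40 for targets of PPARγ and C/EBPα, and 9 in place of 16 for targets of SREBP1c and LXR, and higher entries of restraining factors 8 in place of 13. Depth and cell number are unknown, so precision cannot be given.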

Other observations

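For the members with at least 6 entries, the genes with the most similar detection inside over shared clusters were listed as a description. *Cebpd* was followed most closely over 6 clusters by *Emb* (Pearson r 0.974), *Myh9* (0.973) and *Flna* (0.97), where the median over 91 genes was 0.746. *Klf9* was followed by *Col6a1* (0.997), *Mgst1* (0.995) and *Rnase4* (0.994), each over 6 clusters, with a median of 0.509 over 280 genes. The points are clusters of the same pooled libraries, and each set includes cluster 10 and, for *Cebpd*, also cluster 4, in which nearly all entries had low detection.

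*Pdgfrb*, the only 1 of 4 muscle and pericyte markers listed, was detected in 88.6% of cluster 1 and 12.4% of cluster 11.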
